A study of Mus musculus with 20 samples.

Results

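Interferon-stimulated genes are the genes a cell turns on when interferon binds its receptor, and 44 of them were followed here in sorted mouse thymocytes. They were chosen by gene symbol, with earlier results of these data known, and 44 of 44 were found among the 23284 genes of the count table. All 44 passed the filter on low counts in both sets of libraries, so none was lost before testing. Type I interferons bind the IFNAR1 and IFNAR2 receptor chains, and the kinases JAK1 and TYK2 then activate STAT proteins, which join IRF9 and bind interferon-stimulated response elements (ISRE). Interferon-gamma binds IFNGR1 and IFNGR2, and STAT pairs then bind gamma-activated sites (GAS). Many of the induced proteins sense viral nucleic acid, block viral replication or attack vacuoles that hold pathogens, and the thymus is known for a low, steady interferon tone that sets the resting level of several of them.

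RNA was sequenced in 20 libraries of DN3 thymocytes, an early stage without CD4 and CD8, in 6 groups of C57BL/6 mice. DeltaMxCre mice carried MxCre and floxed Zmiz1, a gene for a transcriptional cofactor, and MxCre mice carried MxCre alone. There were 3 mice in each of these groups. Mice of both groups were given 5 doses of 40 mcg of pI-pC, a double-stranded RNA mimic, at intervals of 2 days, and their cells were sorted 8 weeks later. Cre in this model is driven by the Mx1 promoter, which interferon itself induces, so the controls share the interferon-inducing injection. AntiNRR mice received 10 mg/kg of a blocking antibody to the NRR, the regulatory part of the NOTCH1 receptor. IgG mice received control antibody, and cells of both were sorted after 24 h (3 libraries each). DeltaTamCre mice carried Rosa26CreERT2, a ubiquitous tamoxifen-activated Cre, with floxed Zmiz1, and TamCre mice carried Rosa26CreERT2 alone. Both received 0.2 mg/g of tamoxifen, and cells were sorted at 43 to 44 h (4 mice each). Ages, and how many animals stand behind each antibody library, are not stated in the labels, so the spread between antibody libraries may be technical. The DeltaMxCre, MxCre, AntiNRR and IgG libraries shared an estimate of the spread. That spread therefore enters the p-values of all comparisons among these groups, those of DeltaMxCre and MxCre included.

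DeltaMxCre, MxCre, AntiNRR and IgG libraries were made with the SMARTer kit from 50 ng of RNA and held 11695668 to 19133149 counts. DeltaTamCre and TamCre libraries were made with the TruSeq kit from 100 ng and held 52615332 to 101425251 counts. Kit, sequencing depth and mouse model cannot be told apart, so levels are compared within a kit. The labels give the sort gate as CD44+CD25-, the reverse of the textbook DN3 phenotype. The CD25 gene Il2ra was read at 543 to 5886 CPM (counts scaled to library size) in the 20 libraries, and Cd44 at 0.551 to 7.23 CPM. Zmiz1, the deleted gene, averaged 123 ± 8.27 CPM in DeltaMxCre, against 331 ± 31.2 CPM in MxCre (SD, n = 3 each). It averaged 187 ± 23.4 CPM in DeltaTamCre and 293 ± 22.4 CPM in TamCre (SD, n = 4 each). A pair of libraries stood apart in the 44 genes. AntiNRR 2, the shallowest SMARTer library, held the highest CPM of the 12 SMARTer libraries in 23 of 44 genes. DeltaTamCre 3 held the highest CPM of the 8 TruSeq libraries in 43 of 44. The same counts over all genes were not worked out. Medians over the 44 genes are given with and without these libraries. In bulk RNA, fewer cells of a type and less RNA per cell cannot be told apart.

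The promoters show which of the genes carry the letters of the pathway's binding sites. RefSeq promoters (GRCm38.p6, 250 bases before to 50 after a gene start) were matched for 34 of the 44 genes. The ISRE core, GAAA and again GAAA with any 2 bases (NN) between them, searched on both strands, was present for 19 of the 34 genes (55.9%), against 3.70% of the 10718 tested genes with a promoter. The GAS core TTCNNNGAA, which reads the same on both strands, was present for 11 of the 34 (32.4%), against 8.36%. A match describes letters and is not a measured binding site. The 250 bases before the start are shown for 6 genes whose sites differ in kind and number, 5′ to 3′ on the gene's strand, with matches in capitals. Isg15 (chr4:156200819-156201068, minus strand) holds 3 overlapping ISRE matches. Gbp7 (chr3:142530086-142530335, plus strand) holds 2 GAS matches and 1 ISRE match read on the other strand. Trim30a (chr7:104465194-104465443, minus strand) holds 1 ISRE match read on the other strand. Irf1 (chr11:53769764-53770013, plus strand) holds 1 GAS match and no ISRE match in this window. Igtp (chr11:58199306-58199555, plus strand) and its neighbour Irgm2 (chr11:58214727-58214976, plus strand) each hold a GAS match and, just after it and without overlap, an ISRE match.
Isg15: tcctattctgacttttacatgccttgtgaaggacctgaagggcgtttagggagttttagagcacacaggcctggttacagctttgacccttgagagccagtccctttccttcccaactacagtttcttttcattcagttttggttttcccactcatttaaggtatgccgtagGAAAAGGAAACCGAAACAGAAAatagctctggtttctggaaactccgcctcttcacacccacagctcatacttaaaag
Gbp7: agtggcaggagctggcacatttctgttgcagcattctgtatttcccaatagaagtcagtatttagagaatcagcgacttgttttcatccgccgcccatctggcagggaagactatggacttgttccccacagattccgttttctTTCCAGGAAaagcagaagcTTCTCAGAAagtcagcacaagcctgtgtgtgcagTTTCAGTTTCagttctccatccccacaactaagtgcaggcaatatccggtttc
Trim30a: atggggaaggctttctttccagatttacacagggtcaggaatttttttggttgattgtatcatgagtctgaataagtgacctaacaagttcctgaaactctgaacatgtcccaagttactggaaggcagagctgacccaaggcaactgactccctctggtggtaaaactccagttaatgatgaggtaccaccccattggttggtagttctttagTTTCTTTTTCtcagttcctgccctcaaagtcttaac
Irf1: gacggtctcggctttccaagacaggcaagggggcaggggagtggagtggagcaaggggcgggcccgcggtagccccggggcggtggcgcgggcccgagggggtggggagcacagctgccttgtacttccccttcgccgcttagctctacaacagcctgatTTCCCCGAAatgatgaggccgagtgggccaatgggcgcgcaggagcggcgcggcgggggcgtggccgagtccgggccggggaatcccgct
Igtp: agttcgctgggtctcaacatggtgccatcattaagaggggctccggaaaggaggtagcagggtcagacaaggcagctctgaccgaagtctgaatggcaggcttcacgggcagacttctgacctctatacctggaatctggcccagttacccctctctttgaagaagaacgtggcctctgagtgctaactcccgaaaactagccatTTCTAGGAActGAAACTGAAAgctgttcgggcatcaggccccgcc
Irgm2: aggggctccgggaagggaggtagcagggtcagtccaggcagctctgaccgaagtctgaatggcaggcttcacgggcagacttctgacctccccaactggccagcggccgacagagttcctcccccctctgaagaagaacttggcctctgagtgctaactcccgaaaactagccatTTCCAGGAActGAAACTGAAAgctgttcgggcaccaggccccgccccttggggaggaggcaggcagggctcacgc
The Igtp and Irgm2 matches begin 45 and 34 bases before the start in Igtp and 75 and 64 bases before it in Irgm2. Of the 44 genes, 22 have another of the 44 within 500 kb, such as Dtx3l, Parp9 and Parp14 on chromosome 16 and Gbp2, Gbp3 and Gbp7 on chromosome 3. Genes of 1 cluster, and near-identical paralogues, are therefore not independent observations, and reads of overlapping genes such as Dtx3l and Parp9 could be shared.

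Deletion of Zmiz1 in the MxCre model was set against the MxCre control first. In DeltaMxCre, 8 of the 44 genes rose and none fell at an adjusted p under 0.05 (edgeR, Benjamini-Hochberg over the 13557 genes tested). Of all genes tested, 2.94% were called, 1.67% as higher and 1.27% as lower. The 8 were Trim30a, Iigp1, Parp14, Ddx58, Irf1, Parp9, Zbp1 and Gbp7. The log2 fold change was above 0 for 40 of 44 genes, with a median of 0.56, against 46.7% of all genes and a median of −0.03. In 19 of 44 genes every DeltaMxCre library lay above every MxCre library, against 10.2% of all genes. Unadjusted p was under 0.05 for 21 of 44, against 16.5%. The median over the genes of each library's log2 difference from the MxCre mean was 0.30, 0.77 and 0.59 in the 3 DeltaMxCre libraries. The number called ranged between 2 and 9 when 1 library was left out: it was 2 without DeltaMxCre 2 and 2 without DeltaMxCre 3, and 4 without MxCre 2, while the median stayed between 0.50 and 0.64.

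**Figure D1:**
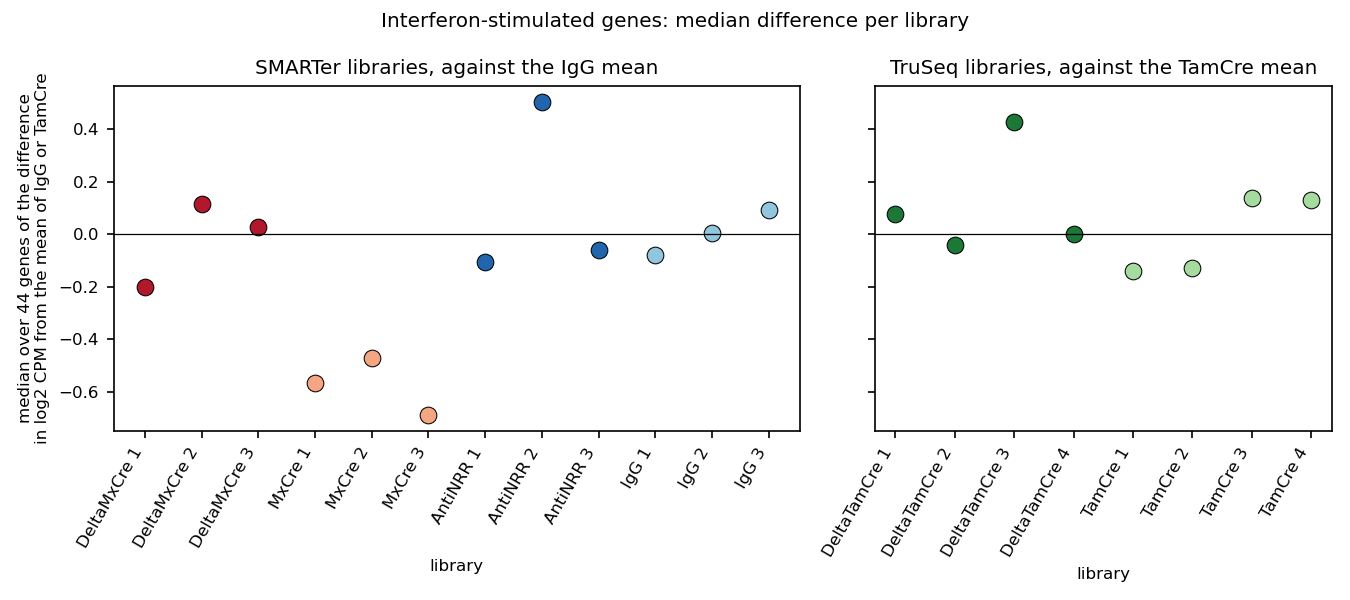
Median over the 44 genes of each library's difference in log2 CPM from the mean of IgG (SMARTer libraries, left) or TamCre (TruSeq libraries, right); each point is 1 library. The 3 MxCre libraries lie at −0.57, −0.47 and −0.69, below the other 9 SMARTer libraries, while AntiNRR 2 (0.50) and DeltaTamCre 3 (0.43) are the highest of their kit.

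Among the 4 interferon transcription factors, Irf1 rose. IRF1 binds ISRE-like sites and is itself induced by interferon. Irf1 had 139, 129 and 136 CPM in DeltaMxCre, against 104, 97.4 and 83.9 CPM in MxCre. The groups did not overlap, and the difference was 0.50 ± 0.13 on the log2 scale (SE, adjusted p = 0.0358). Stat2, Irf7 and Irf9, which encode the remaining parts and the main amplifier of the type I response, had fold changes between 0.26 and 0.43, did not pass the test and overlapped between groups.

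Of the 6 genes of the ISG15 system, ubiquitin ligases and ADP-ribosyltransferases, Parp14 and Parp9 rose. PARP14 and PARP9 are macrodomain proteins of the ADP-ribosyltransferase family, and PARP9 works in a complex with the ubiquitin ligase DTX3L. Parp14 had 315, 327 and 388 CPM in DeltaMxCre and 233, 221 and 239.9 CPM in MxCre. Parp9 had 192, 228 and 229 CPM in DeltaMxCre and 141, 152 and 166 CPM in MxCre. Both sets were apart, with differences of 0.57 ± 0.13 (adjusted p = 0.0156) for Parp14 and 0.50 ± 0.13 (adjusted p = 0.0358) for Parp9. Dtx3l, which starts beside Parp9, had 641, 669.8 and 739 CPM in DeltaMxCre and 494, 519 and 551 CPM in MxCre. These did not overlap either, but the adjusted p of 0.0508 (0.39 ± 0.11) lay just outside the threshold, and it passed in 6 alternatives, DESeq2 among them. Usp18, which encodes the protease that removes ISG15 and also damps IFNAR2 signalling, had the highest fold change of this role at 0.95 ± 0.32 (adjusted p = 0.114). It had 30.8, 25.8 and 28.1 CPM in DeltaMxCre and 19.8, 12.9 and 11.3 CPM in MxCre, without overlap. Isg15 itself, the ubiquitin-like modifier, had 3.88, 11.2 and 7.49 CPM in DeltaMxCre and 4.72, 4.87 and 4.23 CPM in MxCre, so DeltaMxCre 1 lay below all MxCre libraries.

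The 5 nucleic acid sensors were split. Ddx58, which encodes the RNA sensor RIG-I, had 89.6, 118 and 102 CPM in DeltaMxCre, against 75.9, 68.1 and 64.0 CPM in MxCre. Zbp1, a sensor of Z-form nucleic acid, had 39.5, 60.5 and 56.7 CPM in DeltaMxCre, against 33.8, 33.1 and 19.9 CPM in MxCre. Both rose without overlap of the groups, by 0.58 ± 0.15 for Ddx58 (adjusted p = 0.0291) and 0.86 ± 0.23 for Zbp1 (adjusted p = 0.0423). Dhx58, which encodes the RIG-I relative LGP2, had 7.61, 17.1 and 15.97 CPM in DeltaMxCre and 12.5, 17.5 and 21.6 CPM in MxCre. Eif2ak2, which encodes the RNA-activated kinase PKR, had 111, 123 and 118 CPM in DeltaMxCre and 109, 151 and 128 CPM in MxCre. In both of these the groups overlapped, and their fold changes of −0.34 ± 0.29 and −0.14 ± 0.15 were among the 4 of the 44 below 0.

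The OAS family and the antiviral effectors had the highest median fold changes of the roles, 0.92 and 1.14, with wide errors, and none of these 15 genes passed the test. OAS enzymes make the short adenylate chains that activate RNase L. Oas2 had 1.24, 5.66 and 14.5 CPM in DeltaMxCre and 2.57, 1.06 and 3.22 CPM in MxCre. DeltaMxCre 1 was inside the MxCre range, and the fold change of 1.65 ± 0.96 had an adjusted p of 0.437. Oas3 was tighter, at 21.6, 29.1 and 28.1 CPM in DeltaMxCre and 17.3, 13.8 and 16.2 CPM in MxCre, with no overlap and 0.74 ± 0.27 (adjusted p = 0.155). Mx2, a dynamin-like GTPase gene next to Mx1, had 0, 6.80 and 4.13 CPM in DeltaMxCre and 1.37, 0.437 and 1.47 CPM in MxCre, so 1 DeltaMxCre library had no counts while the remaining 2 were above MxCre. Its fold change was 1.74 ± 1.25 (adjusted p = 0.581). Ifit2, which binds viral RNA, went the other way with −0.15 ± 0.42: its 35.1, 34.3 and 33.7 CPM in DeltaMxCre lay within the 20.9, 35.2 and 58.3 CPM of MxCre. Mx1 had between 0 and 85 counts and Mx2 between 0 and 193 counts in a SMARTer library, so their fold changes rest on few reads.

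All 8 IRG and GBP GTPases, which are recruited to pathogen vacuoles, had a fold change above 0, and Iigp1 and Gbp7 rose. Iigp1 had 27.9, 50.0 and 30.6 CPM in DeltaMxCre, against 9.56, 15.99 and 13.8 CPM in MxCre. Gbp7 had 206, 239 and 245 CPM in DeltaMxCre, against 165, 152 and 169 CPM in MxCre. The groups were apart in both, by 1.46 ± 0.33 for Iigp1 (adjusted p = 0.0147) and 0.51 ± 0.14 for Gbp7 (adjusted p = 0.0449). Gbp2, another guanylate-binding protein gene, had 71.8, 81.2 and 104 CPM in DeltaMxCre and 67.6, 60.8 and 53.4 CPM in MxCre, apart and not called by edgeR (0.50 ± 0.16, adjusted p = 0.0872) but called by DESeq2 (adjusted p = 0.0482). Gbp3 and Irgm2 were also apart and above MxCre without a call. Of the 6 remaining genes, Trim30a rose. Trim30a encodes a TRIM protein that restrains inflammasome and TLR signalling in mice. It had 135, 178 and 174 CPM in DeltaMxCre and 84.0, 118 and 79.3 CPM in MxCre, all DeltaMxCre libraries being higher. Its call (0.79 ± 0.16, adjusted p = 0.00636) was kept in 18 of 18 alternatives, while the other 7 were kept in 10 to 16 of 18. Rtp4, which encodes a receptor transporter that restrains viral replication, had 28.0, 24.1 and 18.3 CPM in DeltaMxCre and 11.4, 15.1 and 11.6 CPM in MxCre, apart, outside the threshold with edgeR (0.88 ± 0.27, adjusted p = 0.0738) and inside it with DESeq2 (adjusted p = 0.0467).

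**Figure D2:**
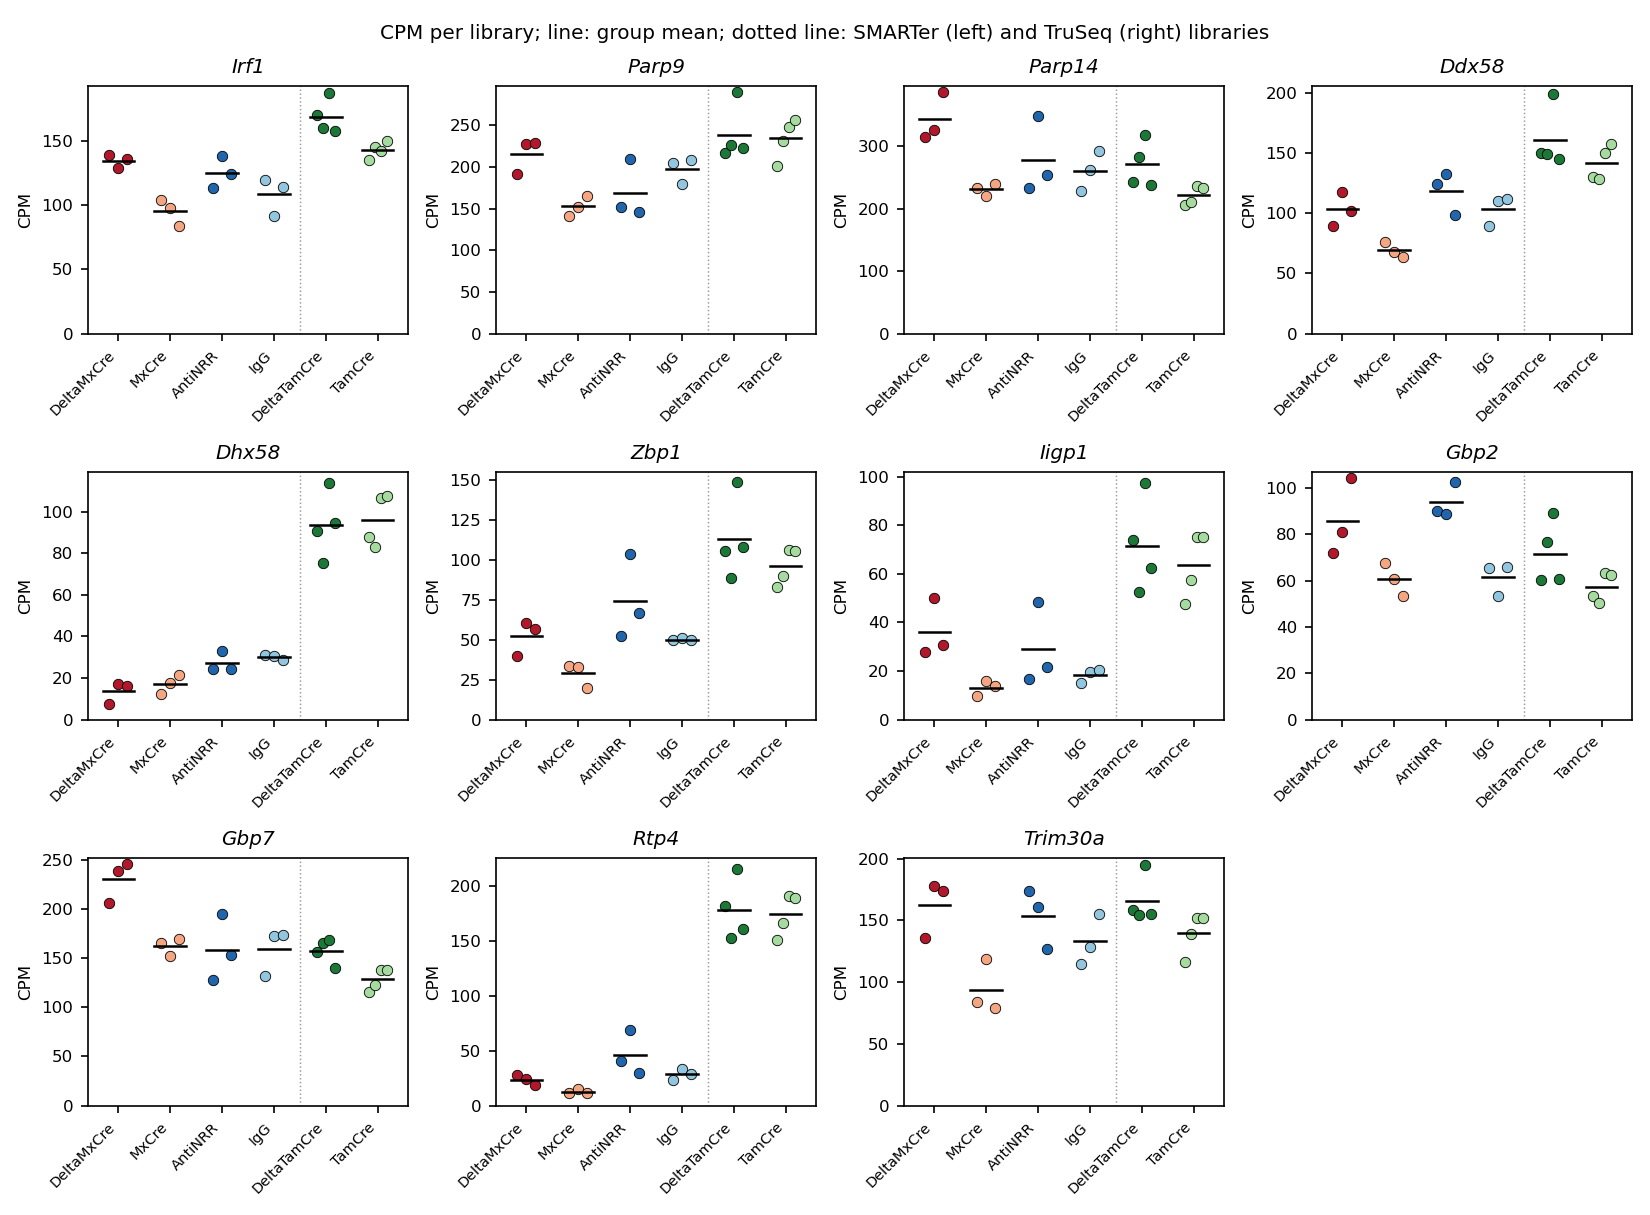
CPM in every library of the 11 genes called in at least 1 of 5 comparisons; points are libraries, lines are group means, and the dotted line parts SMARTer libraries (left) from TruSeq libraries (right). DeltaMxCre points lie above MxCre points in 10 of the 11 genes, Dhx58 being the exception. Of the 11, 8 were drawn because they were called in this same comparison, so that count follows in part from the choice. Over all 44 genes it was 19, against 10.2% of all genes tested.

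The MxCre control was then compared with the IgG control of the same kit, since the MxCre mice had received the interferon inducer 8 weeks before. These groups differ in transgene, pI-pC, antibody and cohort, which cannot be told apart, and MxCre and IgG also serve as controls elsewhere in this account. MxCre had the lowest mean CPM of the 4 SMARTer groups in 37 of 44 genes, a count that was not worked out over all genes. The log2 fold change of MxCre against IgG was below 0 for 39 of 44, with a median of −0.56, while 49.8% of all genes were above 0. In 25 of 44 genes every MxCre library lay below every IgG library, against 9.28% of all genes, and 23 had an unadjusted p under 0.05, against 14% of all genes. At an adjusted p under 0.05, 1 of 44 fell and none rose, against 1.03% of all genes called and 0.472% called lower. That gene was Rtp4, with 11.4, 15.1 and 11.6 CPM in MxCre against 23.4, 33.4 and 28.7 CPM in IgG (−1.17 ± 0.27, adjusted p = 0.0330). The number called was 0 without MxCre 1, MxCre 3, IgG 2 or IgG 3, 2 without DeltaMxCre 1, 4 without MxCre 2 or any 1 AntiNRR library and 5 without IgG 1. DESeq2 called 8 of the 44 as lower and 448 genes in all, against 140 with edgeR.

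Several further genes were apart in this comparison without passing the edgeR test, and the first 3 given here passed with DESeq2. Irf9, the DNA-binding part of the ISRE complex, had 47.1, 65.3 and 44.5 CPM in MxCre and 74.9, 107 and 91.2 CPM in IgG (−0.80 ± 0.20, adjusted p = 0.0549). Ddx58 had 75.9, 68.1 and 64.0 CPM in MxCre and 89.0, 110.0 and 112 CPM in IgG (−0.58 ± 0.15, adjusted p = 0.0517). Oasl1, an OAS-like gene, had 3.59, 1.75 and 2.54 CPM in MxCre and 5.69, 10.3 and 13.7 CPM in IgG (−1.91 ± 0.50, adjusted p = 0.0568). Every MxCre library was below every IgG library in these 3 genes. By role, the median fold change was −1.57 over the 10 antiviral effectors, −1.10 over the 5 OAS genes and −0.34 over the 8 GTPases. Gbp2, Gbp3, Gbp7, Eif2ak2, Stat2 and Ifit2 stood near IgG or above it: Gbp7 had 165, 152 and 169 CPM in MxCre and 132, 173 and 174 CPM in IgG, which overlapped (0.02 ± 0.14).

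DeltaMxCre, given the same pI-pC, was set against IgG as well. This comparison shares libraries with the 2 above and is no independent view of them. The median over the 44 genes was −0.01. Gbp7 rose (206, 239 and 245 CPM in DeltaMxCre, against 132, 173 and 174 CPM in IgG; 0.53 ± 0.14, adjusted p = 0.0403). Dhx58 fell (7.61, 17.1 and 15.97 CPM in DeltaMxCre, against 31.0, 30.7 and 28.4 CPM in IgG; −1.14 ± 0.29, adjusted p = 0.0291). These were 2 of 44, against 2.32% of all genes called and 1.16% called higher, and the number was 0 without DeltaMxCre 3 or any 1 IgG library, 1 without DeltaMxCre 1 or DeltaMxCre 2, and 4 without AntiNRR 2. DeltaMxCre lay wholly above IgG in 8 genes, among them Gbp2, Gbp3, Gbp7 and Iigp1, against 11.1% of all genes. It lay wholly below IgG in 4 genes, Dhx58, Ifit3, Rsad2 and Trim25, against 11.2%. Rsad2, which encodes viperin, an enzyme that makes a chain-terminating nucleotide, had 4.81, 7.23 and 3.47 CPM in DeltaMxCre, against 13.3, 20.4 and 7.56 CPM in IgG, and 6.57, 2.37 and 4.69 CPM in MxCre. Its values in DeltaMxCre and MxCre overlapped, and both were below IgG. By role, the median fold change of DeltaMxCre against IgG was 0.30 over the 8 GTPases and −0.36 over the 10 antiviral effectors, and the difference between roles was not tested.

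**Figure D3:**
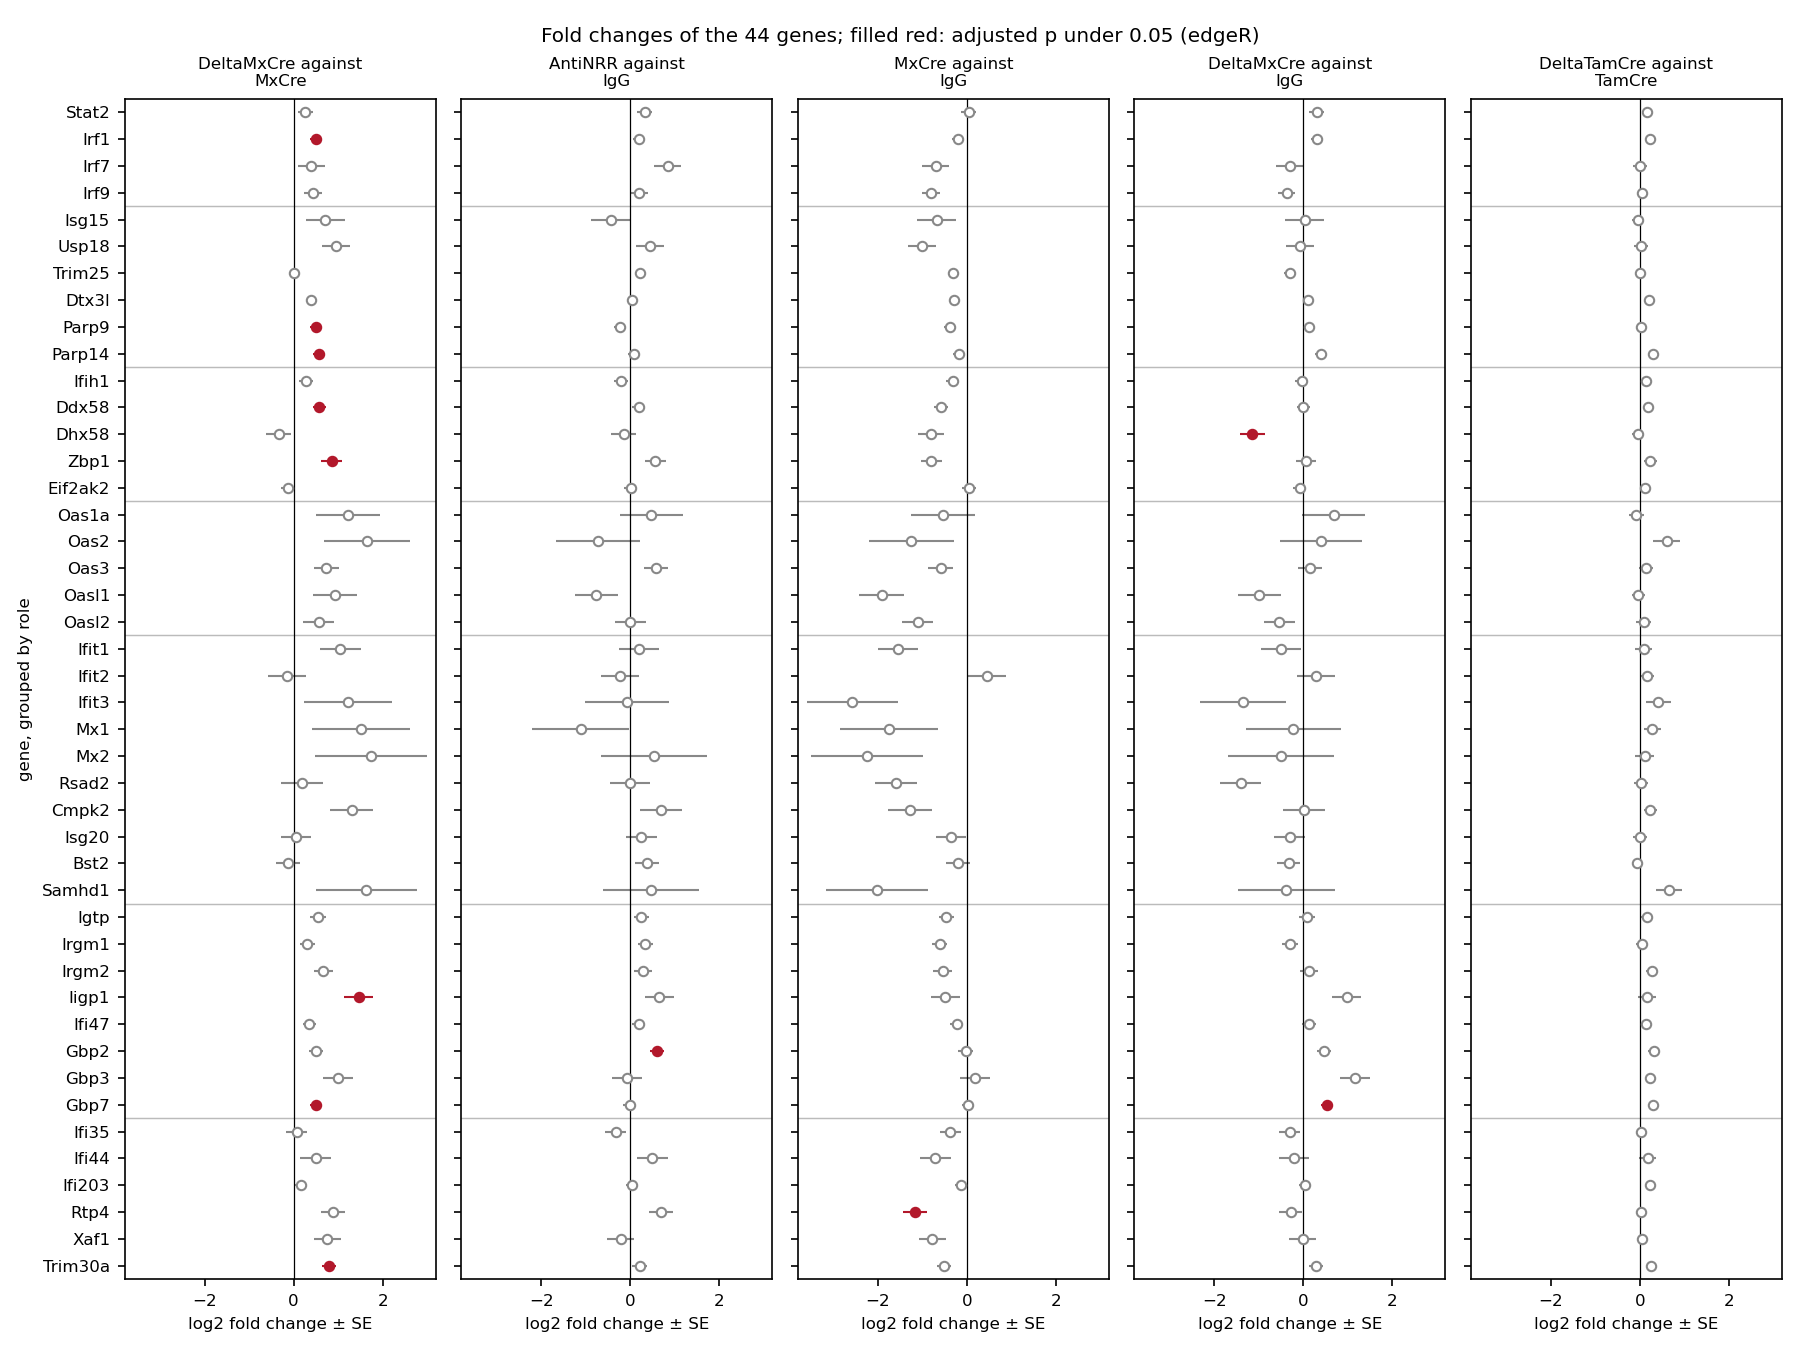
Log2 fold change with its SE for each of the 44 genes, grouped by role, in 5 comparisons; filled red points are called (edgeR, adjusted p under 0.05) and open grey points are not. Most points lie right of 0 for DeltaMxCre against MxCre (40 of 44) and left of 0 for MxCre against IgG (39 of 44), and errors are widest for the OAS and antiviral effector genes.

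The NOTCH1 antibody at 24 h came with 1 of the 44 genes higher and none lower, against 4.06% of all genes called and 1.66% called higher. Gbp2 had 90.2, 88.9 and 103 CPM in AntiNRR and 65.6, 53.6 and 66.0 CPM in IgG, and the AntiNRR libraries were all higher (0.61 ± 0.16, adjusted p = 0.0259). The call was lost in 5 of the 12 fits that left out 1 library (IgG 1, IgG 2, IgG 3, AntiNRR 1 or AntiNRR 3). The fold change was above 0 for 30 of 44 genes, against 48.2% of all genes, with a median of 0.20, which was −0.05 without AntiNRR 2. Unadjusted p was under 0.05 for 5 of 44, against 16.3% of all genes. The median difference from the IgG mean was −0.10 in AntiNRR 1, 0.50 in AntiNRR 2 and −0.06 in AntiNRR 3.

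In AntiNRR 2, 39 of the 44 genes were above the IgG mean. Irf7, the amplifier of type I interferon production, had 23.7, 50.5 and 24.4 CPM in AntiNRR, against 20.5, 16.5 and 17.9 CPM in IgG. Zbp1 had 52.5, 104 and 66.8 CPM in AntiNRR, against 49.5, 50.9 and 50.0 CPM in IgG. Rtp4 had 40.4, 68.5 and 29.6 CPM in AntiNRR, against 23.4, 33.4 and 28.7 CPM in IgG. In each, AntiNRR 2 is the highest library, and the groups were apart in Irf7 and Zbp1 but not in Rtp4. Their fold changes of 0.84 ± 0.30, 0.57 ± 0.23 and 0.69 ± 0.27 had adjusted p-values of 0.130, 0.200 and 0.164. Without AntiNRR 2 they were 0.40 ± 0.31, 0.25 ± 0.22 and 0.30 ± 0.27. Iigp1 showed the same library, with 16.9, 48.3 and 21.7 CPM in AntiNRR and 15.2, 19.6 and 20.3 CPM in IgG. Isg15 lay the other way: its 5.16, 5.83 and 5.31 CPM in AntiNRR all lay below the 7.57, 8.52 and 6.01 CPM of IgG, with a fold change of −0.44 ± 0.44 (adjusted p = 0.715). Groups were apart and higher in 4 genes (Gbp2, Irf7, Stat2 and Zbp1), against 10.3% of all genes, and lower in Isg15, against 11.3%.

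In the acute tamoxifen model, no call was made among the 44 genes by edgeR (0 of 44, against 0.0892% of all genes). DESeq2 called 0 of 44 as well, while it called 545 genes in all, against 12 with edgeR. With edgeR, 7 of the 44 had an unadjusted p under 0.05, against 16% of all genes. The fold change of DeltaTamCre against TamCre was above 0 for 39 of 44, against 53.8% of all genes, with a median of 0.14, which was 0.02 without DeltaTamCre 3. DeltaTamCre 3 was above the TamCre mean in 44 of 44 genes, by a median of 0.43, while the remaining 3 libraries lay at 0.08, −0.04 and 0.00. The groups were apart in 4 genes, each higher in DeltaTamCre, against 4.84% of all genes. They were Irf1, Parp14, Gbp7 and Trim30a, and each of the 4 was also called in DeltaMxCre against MxCre, a comparison that shares no library with this one. This overlap is 4 of 4 of the one list and 4 of 8 of the other and was not tested. The same overlap over all genes was not worked out, so nothing is concluded from it. None of the 4 passed the test in DeltaTamCre against TamCre.

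Irf1 had 169.9, 159.9, 187 and 157 CPM in DeltaTamCre, against 135, 145, 142 and 149.5 CPM in TamCre. Gbp7 had 156, 166, 168 and 140.3 CPM in DeltaTamCre, against 115, 123, 138 and 138 CPM in TamCre. Each DeltaTamCre library was higher than each TamCre library in both genes. In Gbp7 the nearest libraries were close, at 140.3 CPM in DeltaTamCre and 138 CPM in TamCre. The differences of 0.24 ± 0.07 for Irf1 (adjusted p = 0.171) and 0.29 ± 0.08 for Gbp7 (adjusted p = 0.156) did not pass. Parp14 had 243, 284, 319 and 239 CPM in DeltaTamCre and 206, 211, 237 and 233 CPM in TamCre, a gap of a few CPM between the nearest libraries (0.29 ± 0.10, adjusted p = 0.204). Trim30a had 158, 155, 195 and 155 CPM in DeltaTamCre and 117, 139, 152 and 152 CPM in TamCre, with the lowest DeltaTamCre library just above the highest TamCre library (0.24 ± 0.10, adjusted p = 0.283). Oas2 had 132, 57.9, 104 and 84.7 CPM in DeltaTamCre and 35.1, 62.0, 73.6 and 77.9 CPM in TamCre, which overlapped (0.60 ± 0.30, adjusted p = 0.370). Iigp1, the called gene with the largest fold change in DeltaMxCre, had 73.8, 52.3, 97.5 and 62.5 CPM in DeltaTamCre and 47.6, 57.3, 75.2 and 74.998 CPM in TamCre, also overlapping (0.17 ± 0.21, adjusted p = 0.736).

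**Figure D4:**
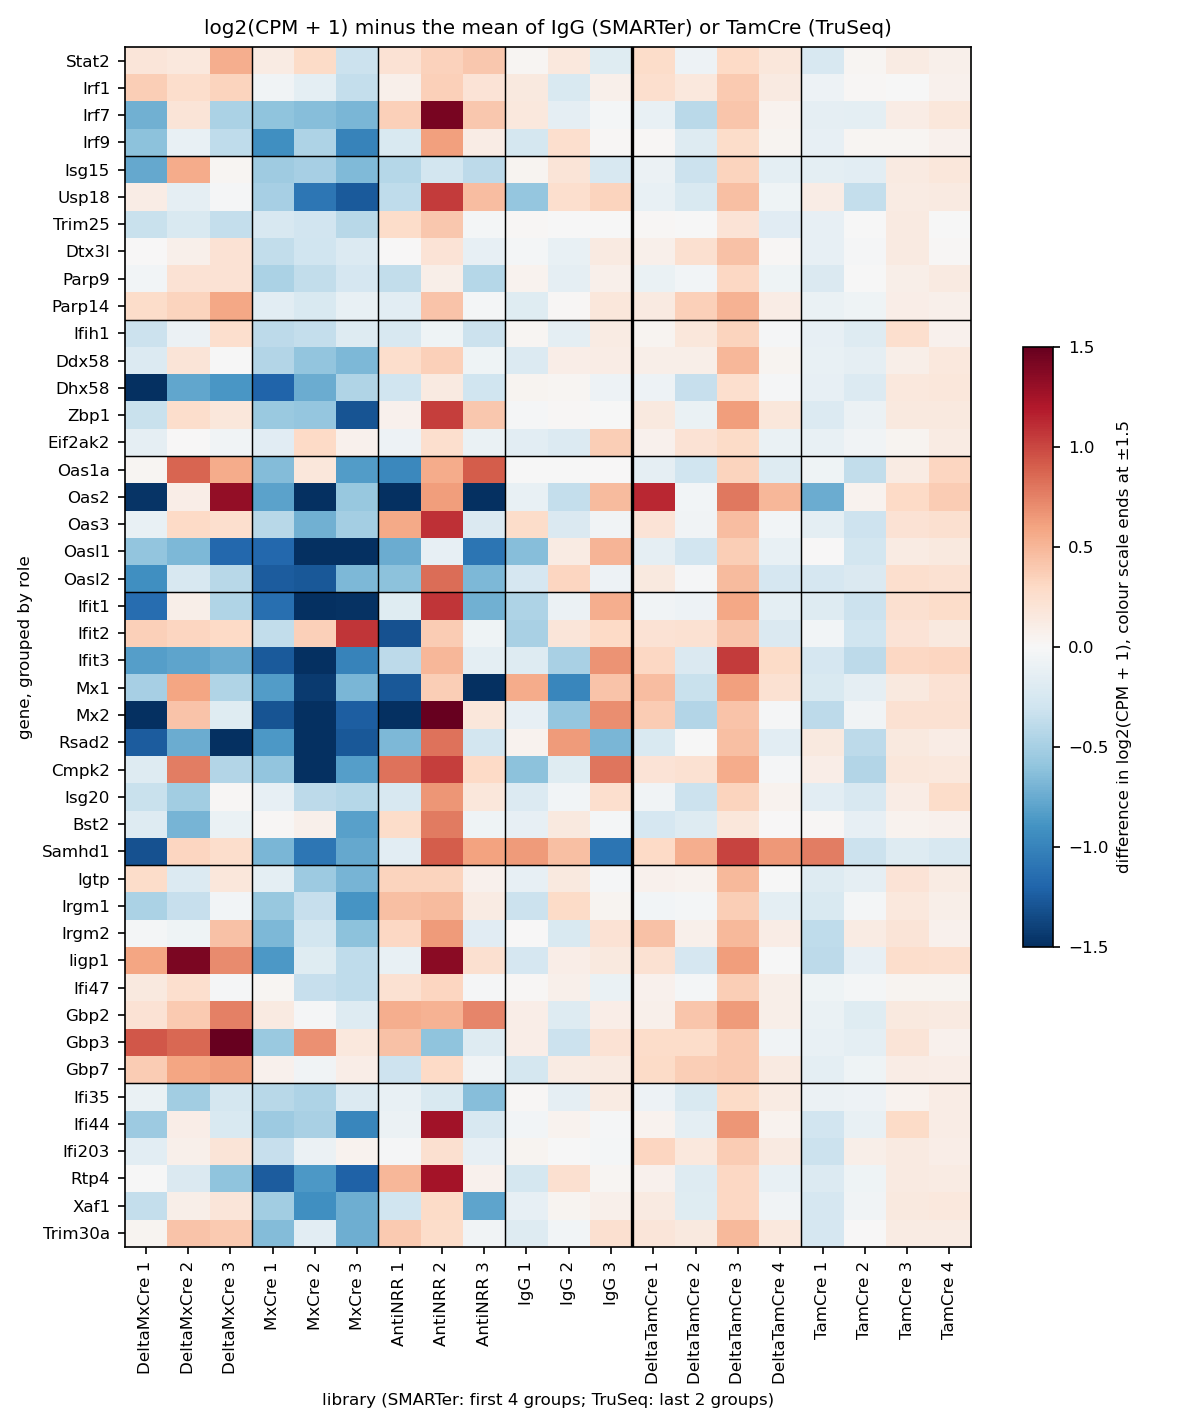
Difference of log2(CPM + 1) from the mean of IgG (the first 4 groups) or TamCre (the last 2 groups) for the 44 genes in 20 libraries; red is higher, blue lower, and the scale ends at ±1.5. MxCre columns are mostly blue, and AntiNRR 2 and DeltaTamCre 3 are the reddest columns of their kit.

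Differences between the 3 effects were tested directly. For DeltaMxCre minus AntiNRR no member passed with edgeR (0 of 44, against 1.23% of all genes), and 9 had an unadjusted p under 0.05, against 12.5%. With DESeq2, which called 344 genes in all, 1 of 44 passed. The median difference was 0.38. Parp9 came nearest, with a difference of 0.72 ± 0.19 (adjusted p = 0.0530), and is the gene DESeq2 called (adjusted p = 0.0235): it had 152, 209 and 146 CPM in AntiNRR and 204, 179 and 208 CPM in IgG, which overlapped and gave a fold change of −0.22 ± 0.13. For DeltaMxCre minus DeltaTamCre, 0 of 44 passed with edgeR (0.166% of all genes) and with DESeq2 (79 genes in all). Unadjusted p was under 0.05 for 14, against 6.79%, and the median was 0.43. For AntiNRR minus DeltaTamCre, 0 of 44 passed with edgeR (0.698% of all genes) and with DESeq2 (289 genes in all). Unadjusted p was under 0.05 for 2, against 11.8%, and the median was 0.03.

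The mean pairwise correlation of the 44 genes in their deviations from the group means was 0.29 over the 12 SMARTer libraries and 0.67 over the 8 TruSeq libraries, against 0.000527 and 0.00109 over all genes tested. This is a description over genes that share libraries, depth and in part loci. In an alternative added after the data were seen, it was 0.12 without AntiNRR 2 and 0.48 without DeltaTamCre 3. The level of the genes also differed between kits. The ratio of mean CPM in TamCre over IgG had a median of 2.62 over the 44 genes and was above 1 for 38 of them, against a median of 1.02 over 12819 genes tested in both. Isg15 lay between 115 and 182 CPM in the TruSeq libraries and between 3.88 and 11.2 CPM in the SMARTer libraries, the highest ratio of the 44 at 19.4. Dtx3l had the lowest, 0.471, with 301 ± 22.2 CPM in TamCre (SD, n = 4) and 638 ± 56.7 CPM in IgG (SD, n = 3). Kit, tamoxifen, transgene and antibody are confounded in this ratio and cannot be told apart.

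The genes upstream of the 44 were read from lists that were chosen with earlier results of these data known. Of 14 interferon ligand genes, Ifng and Ifnk passed the count filter, and no Ifna gene, Ifnb1 or Ifnab reached more than 13 counts in any library. Both were tested in the SMARTer libraries and Ifng alone in the TruSeq libraries. No ligand passed in any of the 5 comparisons with edgeR or DESeq2, and 1 had an unadjusted p under 0.05 in DeltaMxCre against MxCre and 1 in DeltaMxCre against IgG. Ifng lay between 0 and 5.33 CPM in the SMARTer libraries. Of 9 tested genes of the receptor and signalling list, 1 rose in DeltaMxCre against MxCre and 3 in AntiNRR against IgG. Of all genes, 1.67% and 1.66% were called higher in these comparisons. Ifngr1, the ligand-binding chain for interferon-gamma, had 575, 588 and 719 CPM in DeltaMxCre and 413, 337 and 462 CPM in MxCre (0.64 ± 0.13, adjusted p = 0.00553). It had 693, 738 and 559 CPM in AntiNRR and 386, 399 and 436 CPM in IgG (0.70 ± 0.13, adjusted p = 0.000996), apart in both comparisons. It also rose in DeltaMxCre against IgG (0.62 ± 0.13, adjusted p = 0.00646).

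Ifnar2, the ligand-binding chain for type I interferon, had 153, 140.1 and 145 CPM in AntiNRR and 95.6, 89.4 and 73.1 CPM in IgG (0.76 ± 0.14, adjusted p = 0.000892). Jak1, the kinase both receptors use, had 822, 884 and 770.2 CPM in AntiNRR and 567, 569 and 627 CPM in IgG (0.49 ± 0.11, adjusted p = 0.00561). Both rose without overlap, and these calls held in 18 of 18 alternatives. Ifnar1 was apart and not called by edgeR (0.41 ± 0.12, adjusted p = 0.0566) but called by DESeq2 (adjusted p = 0.0363), and Ifngr2 (0.31 ± 0.29) and Tyk2 (0.15 ± 0.16) were not called. In the AntiNRR libraries, 3 of these 9 genes were called higher, beside 1 of the 44 target genes and 1.66% of all genes. The AntiNRR effect exceeded the DeltaTamCre effect for Ifnar2 and Ifngr1, 2 of 9, by the test of the difference, against 0.698% of all genes called. The Ifnar2 call was kept in 17 of 18 alternatives and the Ifngr1 call in 6 of 18.

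A list of 57 further interferon-stimulated genes was also chosen with earlier results of these data known, and 50 were tested in the SMARTer libraries. It gave 8 higher and none lower in DeltaMxCre against MxCre with edgeR, and 11 higher with DESeq2. Of all genes, 2.94% were called and 1.67% called higher by edgeR, while DESeq2 called 691 genes in either direction. Unadjusted p was under 0.05 for 19 of the 50, against 16.5% of all genes. The 8 were Ddx60, Gbp4, Gbp9, Nlrc5, Shisa5, Sp100, Tgtp2 and Trim34a. Trim34a, a TRIM family gene near Trim30a, had 33.9, 45.04 and 45.9 CPM in DeltaMxCre and 16.3, 24.6 and 18.1 CPM in MxCre (1.08 ± 0.21, adjusted p = 0.00482). Nlrc5, the transactivator of MHC class I genes, had 87.6, 132 and 109 CPM in DeltaMxCre and 58.8, 39.8 and 66.1 CPM in MxCre (1.00 ± 0.25, adjusted p = 0.0348). Tgtp2, a T cell IRG GTPase gene, had 32.4, 69.2 and 62.2 CPM in DeltaMxCre and 25.7, 22.5 and 24.9 CPM in MxCre (1.17 ± 0.27, adjusted p = 0.0273). All DeltaMxCre libraries were the higher ones in these 3. Against IgG, Nlrc5 (1.06 ± 0.25, adjusted p = 0.0295), Shisa5 (0.59 ± 0.15, adjusted p = 0.0375) and Sp100 (0.66 ± 0.13, adjusted p = 0.00643) also rose in DeltaMxCre. In AntiNRR against IgG, 1 of 50 rose, against 1.66% of all genes, namely Sp100, a nuclear body gene (0.68 ± 0.13, adjusted p = 0.00266). In MxCre against IgG, 1 of 50 fell with edgeR, against 0.472% of all genes. With DESeq2, which called 448 genes in all, 5 fell: Ddx60, Parp11, Tgtp2, Trim34a and Ube2l6. Ube2l6, which encodes the ISG15-conjugating enzyme, had 4.48, 4.31 and 4.86 CPM in MxCre and 12.4, 10.3 and 15.9 CPM in IgG (−1.502 ± 0.34, adjusted p = 0.0318 with edgeR). Its edgeR call was kept in 12 of 18 alternatives and lost without MxCre 1, MxCre 3 or any 1 IgG library and with the 2 groups alone. In DeltaTamCre against TamCre 0 of 55 passed with edgeR, against 0.0892% of all genes, and 11 had an unadjusted p under 0.05, against 16%. With DESeq2, which called 545 genes in all, 1 passed as lower.

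Markers of other cell types were read beside these results. Of the mature alpha-beta T cell markers, Cd4 and Cd8a stayed at or below 9.82 CPM in DeltaMxCre and MxCre. In AntiNRR the 6 plasmacytoid dendritic cell markers, a cell type known for making interferon, summed to 754 to 886 CPM, against 396 to 434 CPM in IgG. Ccr9 gave 564 to 685 CPM of it in AntiNRR and 183 to 232 CPM in IgG. Ly6d went the other way, with 50.9 to 68.5 CPM in AntiNRR and 87.4 to 93.6 CPM in IgG. Tcf4 lay at 119.3 to 131.8 CPM in AntiNRR and 107.1 to 119.1 CPM in IgG. Siglech lay between 1.52 and 5.06 CPM in AntiNRR and between 1.55 and 2.65 CPM in IgG. Pacsin1 and Cox6a2 reached at most 1.70 CPM in these groups. The sum therefore follows Ccr9 and not the list as a whole. The part of these markers in the results was not tested. The 10 macrophage and monocyte markers summed to 14.3 to 19.7 CPM in DeltaMxCre and 18.05 to 21.4 CPM in MxCre. Cd14 and Mertk were at 0 in all 12 SMARTer libraries. The 6 B cell markers summed to 19.6 to 28.5 CPM in DeltaMxCre and 19.6 to 25.4 CPM in MxCre. Pax5 was at 0 in all 12.

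In the authors' deposited table, made with Cuffdiff, the q value was under 0.1 with a fold above 1 for 18 of the 44 genes in DeltaMxCre over MxCre. It was so for 8 of 44 in AntiNRR over IgG and for 5 of 44 in DeltaTamCre over TamCre, and no member had a fold below 1 at that q value. Over all 23284 genes of the authors' deposited table, unexpressed genes included, the shares with such a q value and a fold above 1 were 2.6%, 4.4% and 2.83%. The authors' deposited table gave median folds of 1.44, 1.18 and 1.05 in these comparisons, against 1 over all genes in each. The group FPKM there seem to have 1 added, since none is below 1 and 34.0% equal 1. The folds are ratios of these values. Folds of genes at low levels are therefore drawn towards 1 and are not on the scale of the fold changes above. Trim30a, with a fold of 1.75 in DeltaMxCre over MxCre and 1.26 in DeltaTamCre over TamCre, passed in both in the authors' deposited table.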

How the data were processed

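Values were deposited as a table of estimated counts per gene for 20 libraries, and the authors also deposited group FPKM, ratios (folds) and q values from their own comparisons. Per the submitters' processing notes, FastQC 0.10.0, TopHat2 2.0.9, Bowtie2 2.1.0.0, Cufflinks and Cuffdiff 2.1.1 were used with mm10. The annotation and strand setting are not given in the sources read. Of the deposited counts, 98.38% were whole, and all were rounded. Overlapping and paralogous genes could share reads.

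Counts were tested with edgeR 4.0.16 (R 4.3.3, limma 3.58.1), TMM scaling and the quasi-likelihood test, with Benjamini-Hochberg adjustment over all genes tested. The fits covered the 12 SMARTer libraries (13557 genes), the 8 TruSeq libraries (13460) or, for differences that cross the kits, all 20 (13895), after edgeR's low-count filter. Errors of fold changes are SE. Effect differences were contrasts of the same fits. DESeq2 1.42.0, other scaling, no filter, a replicate block, smaller and larger fits and leaving out each library were alternatives. The scripts were tested on simulated data. Genes named with full values were those called in any comparison and, in each role, the gene with the highest mean CPM in the SMARTer libraries and the gene with the largest absolute fold change in DeltaMxCre against MxCre. Other genes were named after their values were seen. The members and lists were chosen with earlier results of these data known. Libraries held 11695668 to 101425251 counts, and no 2 of the 190 library pairs agreed within sampling noise. Results that rest on a few further genes are not reported here.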

Additional observations from a re-analysis of the deposited data

Results flagged for a closer look

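Sets of 4 values, such as the CPM of 1 gene in DeltaTamCre or in TamCre, were looked at for a library far from the rest. Of 40 such sets, 4 held one. All sets came from the same DeltaTamCre and TamCre libraries, and the genes were correlated across them. The sets are therefore not independent. Chance alone gives such a library in about 1 in 20 single sets, and 4 of 40 cannot be judged against that rate. DeltaTamCre 3 stood above the other 3 DeltaTamCre libraries in Parp9 (289.7 CPM), Ddx58 (199 CPM) and Trim30a (194.7 CPM). TamCre 2 stood below the other 3 TamCre libraries in Usp18 (68.3 CPM).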

How the results depend on the processing

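The number of the 44 genes called moved with the fit, and the cause was not tested. For DeltaMxCre against MxCre it was 3 with the 2 groups alone and 14 with 1 fit of all 20 libraries, against 8. For MxCre against IgG it was 2 with DESeq2 size factors, 6 with no low-count filter, 8 with DESeq2, 4 with the replicate block, 3 with the 2 groups alone and 6 with 1 fit of all 20 libraries, against 1. For DeltaMxCre against IgG it was 6 with the 2 groups alone, against 2. For the DeltaMxCre effect minus the AntiNRR effect it was 1 with no filter, with DESeq2 and with the block, against 0. The replicate numbers did not pair the libraries (correlations of deviations −0.05 to 0.05 for SMARTer and −0.36 to −0.01 for TruSeq), and with the replicate block 10 of the 44 were called for DeltaMxCre against MxCre.

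With 1 library left out, the calls ranged from 2 to 9 for DeltaMxCre against MxCre, 0 to 1 for AntiNRR against IgG, 0 to 5 for MxCre against IgG, 0 to 4 for DeltaMxCre against IgG, 0 to 0 for DeltaTamCre against TamCre and 0 to 2 for DeltaMxCre minus AntiNRR. The medians ranged from 0.50 to 0.64, −0.05 to 0.27, −0.66 to −0.50, −0.08 to 0.12, 0.02 to 0.21 and 0.28 to 0.60 in the same order. They ranged from 0.36 to 0.56 for DeltaMxCre minus DeltaTamCre and from −0.21 to 0.14 for AntiNRR minus DeltaTamCre. The fold change of Ifit2 in DeltaMxCre against MxCre ranged from −0.44 to 0.30 and reversed without MxCre replicate 3.

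Over all genes, these counts moved by over 1.5 times under alternatives other than leaving out a library. DeltaMxCre against MxCre had 399 calls, against 691 with DESeq2, 183 with the 2 groups alone and 853 with 1 fit of all 20. AntiNRR against IgG had 551, against 1080 with 1 fit of all 20. MxCre against IgG had 140, against 234 with no filter, 448 with DESeq2, 230 with the replicate block and 385 with 1 fit of all 20. DeltaMxCre against IgG had 315, against 543 with DESeq2, 762 with the 2 groups alone and 621 with 1 fit of all 20. DeltaTamCre against TamCre had 12, against 545 with DESeq2, 0 with the block and 2 with 1 fit of all 20. The effect differences had 167, 23 and 97 (DeltaMxCre minus AntiNRR, DeltaMxCre minus DeltaTamCre, AntiNRR minus DeltaTamCre), against 344, 79 and 289 with DESeq2, and the last 2 had 9 and 57 with the block. With 1 library left out, the counts over all genes ranged from 138 to 434, 257 to 817, 4 to 339, 122 to 526 and 0 to 8 for the 5 comparisons in the order given, and from 99 to 290, 11 to 52 and 47 to 131 for the effect differences.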
